A study of Mus musculus with 15 samples.

Results

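Calb1, Calb2 and Pvalb encode calbindin, calretinin and parvalbumin, the cytosolic calcium-binding proteins by which anatomists tell apart many classes of neurons. These 3 genes were selected by symbol out of the 57180 genes in the count tables, and the choice was made on measured values of these same libraries, so their levels and differences are given as a description with no test. RNA sequencing of the brainstem of C57BL/6 mice was performed in 2 experiments, to ask what the loss of the kinase AMPK and of the transcription factor Lmx1b does to transcription where breathing is controlled. The first experiment holds 3 wild-type (WT) libraries and 3 libraries labelled AMPKα2-/-, made from mice and their littermates in a study of neonatal mice. The second holds 3 libraries each of WT, Lmx1b+/- and Lmx1b-/- prenatal embryos. No agent is named for any of these groups in the sources used here. The neonatal mice of the study were aged postnatal day 1 to 5, by an animal section that does not name the RNA libraries. The paper does not directly state the age of the AMPK libraries. How the alleles were made, the age of the embryos, and whether animals were pooled are not given in the sources used here, and no source says that the 3 libraries of a group came from separate animals, so that the errors and p-values measure only the spread between these libraries.

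All 3 proteins belong to the EF-hand superfamily, in which a short loop between a pair of helices cradles a calcium ion. Binding calcium as it enters a neuron, they buffer it and shape the size and duration of the signal in the axon and dendrites. In the brain parvalbumin is known from fast-spiking inhibitory neurons and from auditory and motor relay neurons of the brainstem, calretinin from other interneurons, auditory nuclei and cerebellar granule cells, and calbindin from Purkinje cells, inferior olive neurons and many interneurons. Outside the brain, parvalbumin is abundant in fast skeletal muscle and all 3 proteins occur in sensory neurons of the ganglia, tissues that lie close to a dissected brainstem.

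The loops are what the members share, and the coding bases of 2 loops of each gene are shown to make that kinship visible. They were read from the GENCODE M21 transcripts (GRCm38) (a single coding transcript of each gene), where windows of 12 codons whose translation matched the PROSITE EF-hand loop pattern were searched. The match found 4 loops among the 261 codons of Calb1, 5 among the 271 of Calb2 and 2 among the 110 of Pvalb. The capitals mark the first and the last codon of each loop, which encode acidic residues that hold the calcium.
Calb1 loop 1: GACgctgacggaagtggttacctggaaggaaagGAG
Calb1 loop 4: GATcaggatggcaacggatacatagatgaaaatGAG
Calb2 loop 1: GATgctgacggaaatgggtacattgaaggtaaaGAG
Calb2 loop 5: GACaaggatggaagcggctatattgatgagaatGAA
Pvalb loop 1: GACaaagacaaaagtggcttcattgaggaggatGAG
Pvalb loop 2: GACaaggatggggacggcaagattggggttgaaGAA
The likeness lies in the encoded residues and not in long runs of the same bases. The longest run of bases that any pair of these transcripts shares is 12, between Calb1 and Calb2, and it is 11 for each pair with Pvalb.

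The AMPK libraries came to between 14975095 and 17384171 counts, except WT 2 with 291212 and AMPKα2-/- 3 with 335986. In these 2 shallow libraries the median tested gene had 3 and 4 counts, and a count of 0 allows up to 9.96 and 9.04 CPM (edgeR's unit, counts divided by the TMM-scaled library total). The 9 Lmx1b libraries held between 28833130 and 37441679 counts. The share of counts on mitochondrially encoded genes was 20.05% to 21.73% in the libraries labelled AMPKα2-/- and 10.37% to 13.89% in their WT. It was 9.576% to 14.72% in Lmx1b+/-, 5.573% to 6.742% in WT and 7.228% to 7.98% in Lmx1b-/-. Of the targeted genes, Prkaa2, which encodes the α2 subunit, had 21.9, 26.5 and 29.6 CPM in the WT libraries, compared with 25.3, 22.2 and 12.1 CPM in those labelled AMPKα2-/- (log2 fold change -0.20 ± 0.23 SE, edgeR quasi-likelihood test, adjusted p = 0.659). The counts therefore do not separate the groups by their targeted gene, and where in the gene the deletion lies is not given in the sources used here. Lmx1b had 22.5, 16 and 9.72 CPM in the WT libraries, compared with 1.45, 1.13 and 0.847 CPM in Lmx1b-/- (log2 fold change -3.82 ± 0.41 SE, adjusted p = 0.00287). In Lmx1b+/- it stood at 30.5, 11.9 and 14.2 CPM (log2 fold change against WT 0.23 ± 0.33 SE, adjusted p = 0.618). Hoxa5 and Hoxb5, genes of the hindbrain and spinal cord, were among the 12 hindbrain markers, none of which was at 0 in all libraries of any group.

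Parvalbumin was the member that set the experiments apart. In RPKM, the deposited values per gene length, Pvalb lay at 106, 112 and 196 in the 3 WT libraries of the AMPK experiment. In the 3 WT libraries of the Lmx1b experiment it lay at 1.43, 0.966 and 1.42 RPKM. The ratio of the WT means was 108, and it was between 73.9 and 203 for any single pair of libraries. Calb2 differed far less, with 33.3, 29.6 and 47.0 RPKM against 21.3, 17.4 and 26.8 RPKM, a ratio of means of 1.68. Calb1 overlapped between the WT groups, with 11.5, 9.92 and 6.84 RPKM against 7.81, 7.91 and 9.51 RPKM, a ratio of 1.12. RPKM are scaled by the library total, of which the gene with the most counts took 4.555% in Lmx1b WT 3. It took 21.92% and 18.45% in Lmx1b WT 1 and WT 2, and 10.82% to 16.92% in the AMPK WT libraries. This limits how far small ratios can be read. Age and experiment cannot be told apart, and no test was made across them.

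The order of the members in a library followed the experiment. Per gene length, Pvalb was highest, Calb2 next and Calb1 lowest in 5 of the 6 AMPK libraries. In AMPKα2-/- 1, Calb2 was above Pvalb, with a Pvalb to Calb2 ratio of 0.792 against 3.18 to 4.17 in the 3 WT libraries. In all 9 Lmx1b libraries the order was Calb2, Calb1 and then Pvalb. The Calb2 to Calb1 ratio was 2.20 to 2.81 in WT, 2.26 to 3.39 in Lmx1b+/- and 4.26 to 4.70 in Lmx1b-/-, so that the Lmx1b-/- libraries lay above all others of that experiment.

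**Figure D1:**
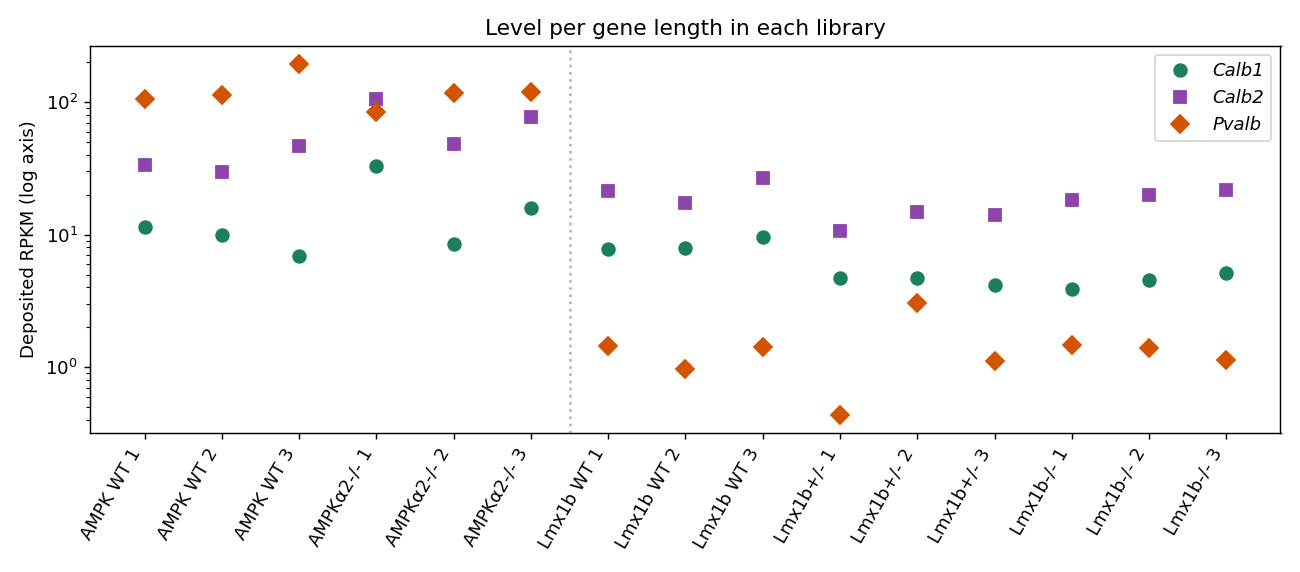
RPKM (log axis) of Calb1 (circles), Calb2 (squares) and Pvalb (diamonds) in each of the 15 libraries, with the AMPK experiment left of the dotted line. Pvalb is above 80 RPKM in all AMPK libraries and between 0.436 and 3.06 RPKM in all Lmx1b libraries.

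In the AMPK experiment, calbindin and calretinin transcripts were higher on average in the libraries labelled AMPKα2-/-, and parvalbumin was not set apart. Calb1 was measured at 54.8, 46.5 and 29.9 CPM in WT 1 to 3 (mean 43.7 ± 12.7 SD, n = 3) and at 164, 46.6 and 78.4 CPM in AMPKα2-/- 1 to 3 (mean 96.5 ± 60.9 SD, n = 3). The groups overlapped, with AMPKα2-/- 2 below WT 1 and AMPKα2-/- 1 far above the other libraries. The log2 fold change was 1.23 ± 0.32 SE, and it was 0.39 without AMPKα2-/- 1. Calb2 was measured at 57.1, 49.8 and 73.9 CPM in WT (mean 60.2 ± 12.4 SD, n = 3) and at 189, 94.5 and 136 CPM in AMPKα2-/- (mean 140 ± 47.3 SD, n = 3). All 3 libraries labelled AMPKα2-/- lay above all WT libraries, by a log2 fold change of 1.15 ± 0.22 SE. Its value lay between 0.80 and 1.42 when any single library was left out. Of all 17397 genes tested, 13.9% lay above WT in this way and 12.7% below it, and since the members were chosen on this contrast nothing is read from that share.

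Pvalb was measured at 108, 113 and 184 CPM in WT (mean 135 ± 42.3 SD, n = 3) and at 89.3, 136 and 127 CPM in AMPKα2-/- (mean 117 ± 24.9 SD, n = 3). The groups overlapped, and the log2 fold change was -0.27 ± 0.21 SE. WT 3 held the highest value, and without it the log2 fold change was 0.09. The 2 shallow libraries rest on 14 and 26 counts of Calb1, 15 and 45 of Calb2 and 34 and 42 of Pvalb. The exact 95% binomial interval for Calb1 in WT 2 ran from 25.4 to 78.0 CPM, and that in AMPKα2-/- 3 from 51.2 to 115 CPM. Such an interval covers counting error only. Without these 2 libraries the log2 fold changes were 1.32 for Calb1, 1.12 for Calb2 and -0.37 for Pvalb.

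**Figure D2:**
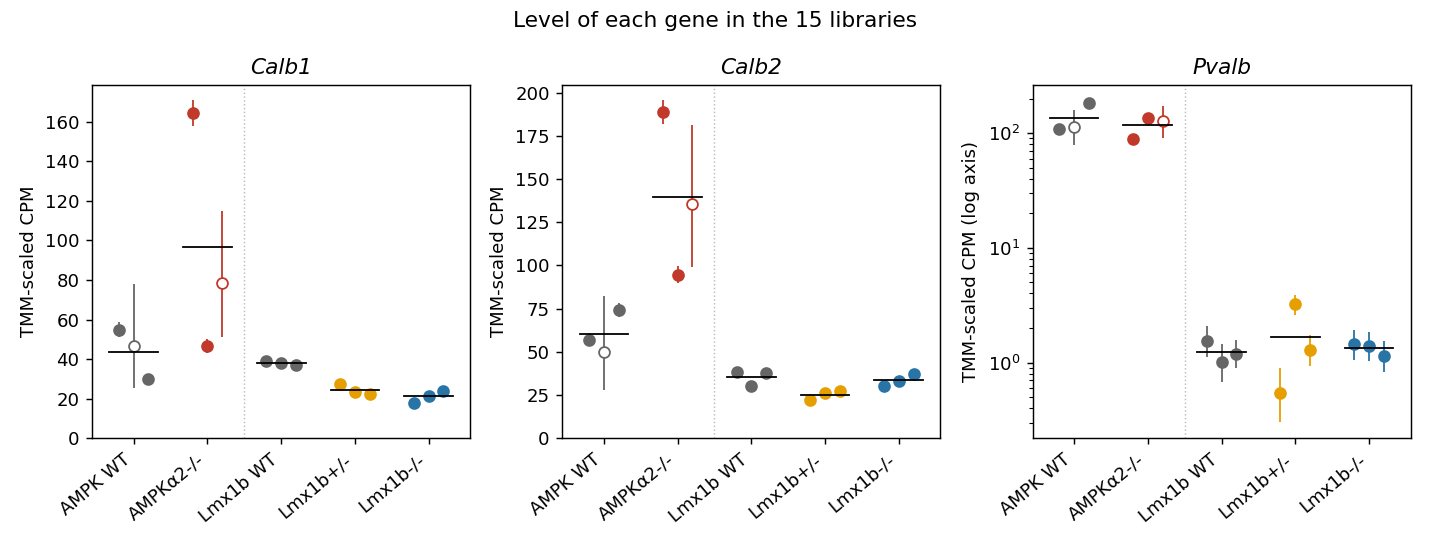
CPM of Calb1, Calb2 and Pvalb (the last on a log axis) in the 15 libraries, in the order of replicates 1 to 3 within each group. Bars show the exact 95% binomial interval of the count, a line marks the group mean and open symbols mark the 2 shallow libraries. Calb2 is higher in all 3 libraries labelled AMPKα2-/- than in WT, and Calb1 is lower in all Lmx1b+/- and Lmx1b-/- libraries than in their WT.

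Some libraries with an extreme value of a member also held an extreme sum of markers of tissues next to the brainstem, while others did not. The summed level of 19 skeletal muscle genes was 1694 CPM in WT 3, the library with the highest Pvalb, against 16.6 CPM in each of the other 2 WT libraries and 9.04 to 14.3 CPM in those labelled AMPKα2-/-. Myh4, a myosin of fast fibres, stood at 383 CPM in WT 3 and at or below 0.328 CPM in the other 5 libraries. Of the 7 muscle genes tested, 7 were called lower in AMPKα2-/-, where 5.17% of all genes were, and without WT 3 it was 0 of 6. Tnnc2 was at 0 in all 3 libraries labelled AMPKα2-/- and in WT 1 and WT 2, and Myoz1 in the same libraries but WT 1. Leaving out WT 3 is the only alternative of 15 that gave Pvalb a positive log2 fold change. The part of muscle RNA in the Pvalb value of WT 3 was not tested.

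The summed level of 7 sensory ganglion genes was 9.91, 39.8 and 28.1 CPM in WT and 116, 37.8 and 60.3 CPM in AMPKα2-/-, with AMPKα2-/- 1 highest, as for Calb1 and Calb2. Among the WT libraries the sum was highest in WT 2, where Calb2 was lowest, at 49.8 CPM. Of the 3 genes tested, Prph, an intermediate filament of neurons, rose by 2.02 ± 0.435 SE (log2, adjusted p = 0.00627). Pou4f1, a homeodomain factor of sensory and some central neurons, rose by 1.99 ± 0.489 SE (adjusted p = 0.0138). In AMPKα2-/- 1, Prph had 68.3 CPM and Pou4f1 44.5 CPM, which made up most of the sum of 116 CPM. Without AMPKα2-/- 1 the value of Pou4f1 was 0.35 and its call was lost, and without both shallow libraries neither was called. Scn10a, the sodium channel of pain-sensing neurons, was at 0 in all 3 libraries labelled AMPKα2-/- and in WT 2 and WT 3, with 0.197 CPM in WT 1. Avil, an actin-binding protein of sensory neurons, had 0.394, 0 and 0.582 CPM in WT and 0, 0.258 and 0 CPM in AMPKα2-/-. Tph2, which makes serotonin and was looked up after its values were seen, stood at 133, 3.62 and 69.3 CPM in AMPKα2-/- 1 to 3 and at 2.76, 6.64 and 0.699 CPM in WT. Its order matched that of Calb1 and Calb2 among the 3 libraries labelled AMPKα2-/- and not among the WT libraries, and AMPKα2-/- 2 lay below WT 2. The 6 choroid plexus genes summed to 61.5, 36.6 and 133 CPM in AMPKα2-/- against 9.96 to 17.6 CPM in WT, and 12 hindbrain genes were lowest in AMPKα2-/- 1, at 56.1 CPM against 112 to 203 CPM in the other 5. In such bulk tissue, fewer cells of a type and less RNA per cell cannot be told apart, and the part of these tissues and of the level of dissection in the Calb1 and Calb2 values was not tested.

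**Figure D3:**
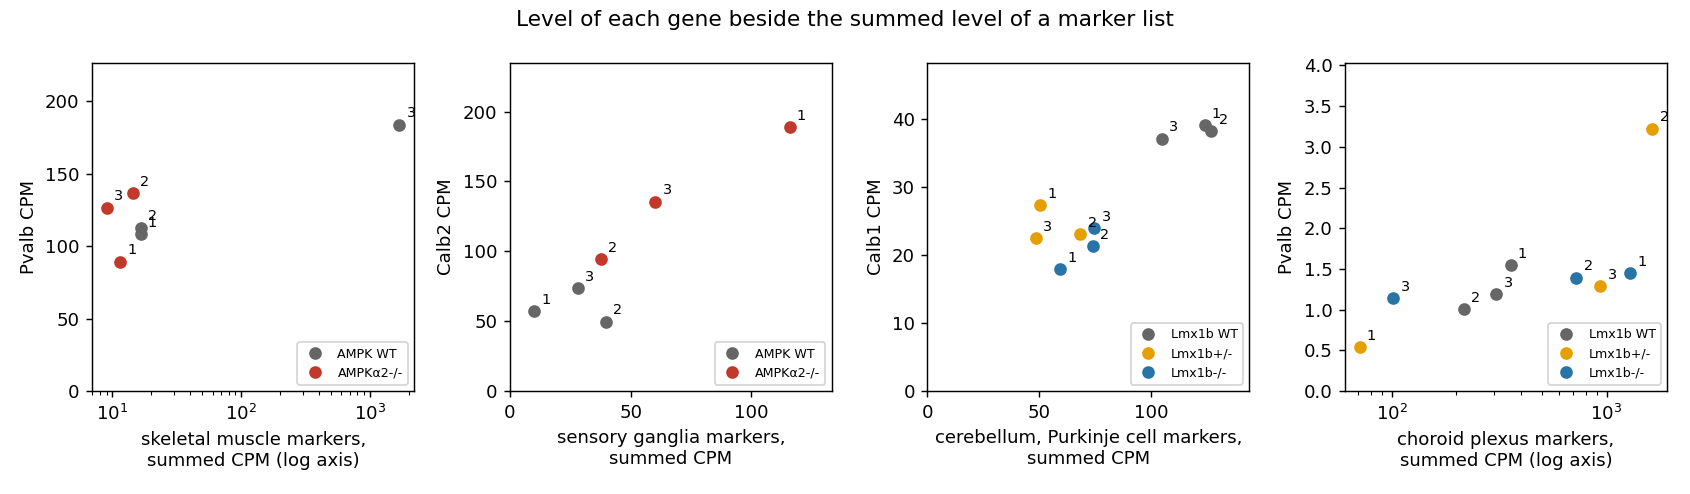
CPM of a member (vertical) against the summed CPM of a marker list (horizontal, on a log axis for skeletal muscle and choroid plexus) in each library, numbered by replicate, for the AMPK experiment in the left 2 panels and the Lmx1b experiment in the right 2. WT 3 of the AMPK experiment is highest for muscle and Pvalb, AMPKα2-/- 1 for ganglion genes and Calb2, and Lmx1b+/- 2 for choroid plexus genes and Pvalb.

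Around the members, 92 genes in 8 lists cover their close relatives and the calcium handling and circuits in which they work. Of all tested genes, 3.77% were called higher and 5.17% lower in AMPKα2-/- at an adjusted p under 0.05. Of the 84 list genes tested, 2 were called higher and 19 lower, with a median log2 fold change of -0.24 against -0.01 over all genes. Without both shallow libraries, a fit of 2 against 2, 1 list gene, Slc17a7, was called, while the list median was -0.23 and 24 list genes had an unadjusted p under 0.05. By limma 0 were called on log2 RPKM, where 30 had an unadjusted p under 0.05. Leaving out 1 library gave 9 calls without WT 3, 10 without AMPKα2-/- 3, 12 without AMPKα2-/- 1 and 34 without WT 1.

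Of 18 genes of fast-spiking neurons and their perineuronal nets, the setting in which parvalbumin is best known, 7 were called lower and 0 higher. Kcnc1, a potassium channel that allows fast firing, fell by 1.04 on the log2 scale (SE 0.21, adjusted p = 0.00363), and Scn4b, a sodium channel subunit of fast-firing neurons, by 0.96 (SE 0.20, adjusted p = 0.0052). Hapln4, a link protein of perineuronal nets in the brainstem, fell by 0.80 (SE 0.18, adjusted p = 0.00775), a call lost without AMPKα2-/- 1. Kcna1, a low-threshold potassium channel, fell by 1.32 (SE 0.29, adjusted p = 0.00695), with 204 CPM in WT 3 against 45.5 to 72.2 CPM in the other 5 libraries and a value of -0.49 without WT 3. Slc17a7, the vesicular glutamate transporter VGLUT1, fell by 3.15 (SE 0.25, adjusted p = 7.88e-08), from 84.4 to 9.82 CPM, the 1 call among 7 transmitter genes. It had 72.9, 110 and 70.9 CPM in WT against 10.6, 6.78 and 12.1 CPM in AMPKα2-/-.

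The EF-hand families nearest in function did not move as a block. Of 6 CaBP and NECAB genes tested, Cabp1, Cabp7 and Caln1 were called lower, a count of 0 without WT 3 or without both shallow libraries and of 1 without AMPKα2-/- 1 or AMPKα2-/- 3. Of 10 neuronal calcium sensors none was called by edgeR (2 had an unadjusted p under 0.05, and DESeq2 called 0), and of 7 S100 genes S100a10 was called higher. S100a10, which pairs with annexin A2 rather than binding calcium, rose by 1.40 (SE 0.26, adjusted p = 0.00229), from 14.4 to 45.1 CPM. Calm2, 1 of the 3 calmodulin genes, rose by 0.61 (SE 0.17, adjusted p = 0.0278). That call was lost by limma and when libraries were scaled by their total alone. It was also lost without WT 2, WT 3, AMPKα2-/- 2, AMPKα2-/- 3 or both shallow libraries. Camk2a was the 1 of 13 calmodulin genes called lower. That count was 0 by DESeq2, by limma, and without AMPKα2-/- 1, AMPKα2-/- 3 or both shallow libraries. Of 23 calcium pumps, exchangers and store channels 7 were called lower, among them Ryr1, the calcium release channel of skeletal muscle, with a log2 fold change of -4.23 beside the muscle genes of WT 3. That count was 0 without WT 3 or without both shallow libraries, 1 without WT 2 or AMPKα2-/- 3, and 2 without AMPKα2-/- 1. Cabp1, Cabp7, Caln1, Camk2a and Ryr1 were named after their values were seen.

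In the prenatal brainstem, calbindin was lower in both mutant genotypes than in WT, and calretinin was lower in Lmx1b+/- while its levels in Lmx1b-/- overlapped WT. Calb1 was measured at 39.2, 38.2 and 37.2 CPM in WT (mean 38.2 ± 1.01 SD, n = 3). It was measured at 27.3, 23.1 and 22.5 CPM in Lmx1b+/- (mean 24.3 ± 2.64 SD, n = 3) and at 18.0, 21.3 and 24.1 CPM in Lmx1b-/- (mean 21.1 ± 3.05 SD, n = 3). All 6 mutant libraries lay below all 3 WT libraries, and the 2 mutant groups overlapped. The log2 fold change against WT was -0.65 ± 0.12 SE in Lmx1b+/- and -0.85 ± 0.12 SE in Lmx1b-/-, and between the mutants it was -0.20 ± 0.12 SE. Lmx1b-/- against WT stayed between -0.96 and -0.75 under 15 alternatives. Groups lay apart in this direction for 21.9% of the 21729 genes tested in Lmx1b+/- against WT and for 6.09% in Lmx1b-/- against WT, and in the other direction for 23.4% and 11.9%.

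Calb2 was measured at 38.4, 30.3 and 37.6 CPM in WT (mean 35.4 ± 4.45 SD, n = 3). It was measured at 22.2, 25.9 and 27.5 CPM in Lmx1b+/- (mean 25.2 ± 2.71 SD, n = 3) and at 30.4, 33.3 and 36.8 CPM in Lmx1b-/- (mean 33.5 ± 3.23 SD, n = 3). The Lmx1b+/- libraries lay below both other groups, and WT and Lmx1b-/- overlapped. The log2 fold change was -0.49 ± 0.12 SE for Lmx1b+/- against WT, -0.08 ± 0.12 SE for Lmx1b-/- against WT and 0.41 ± 0.12 SE for Lmx1b-/- against Lmx1b+/-. Of all genes, 21% lay apart with Lmx1b-/- above Lmx1b+/-, and 21.4% with it below. The comparisons of Lmx1b+/- with WT and of Lmx1b-/- with Lmx1b+/- share the same Lmx1b+/- libraries, so that a deviation of these would enter both with opposite signs.

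Pvalb was barely detected before birth, with 15 to 100 counts in a library. It was measured at 1.55, 1.00 and 1.19 CPM in WT (mean 1.25 ± 0.275 SD, n = 3), 0.542, 3.22 and 1.29 CPM in Lmx1b+/- (mean 1.69 ± 1.38 SD, n = 3) and 1.45, 1.39 and 1.14 CPM in Lmx1b-/- (mean 1.33 ± 0.167 SD, n = 3). The 3 groups overlapped, and the lowest and the highest library of the experiment were both Lmx1b+/-. The log2 fold change was 0.44 ± 0.45 SE for Lmx1b+/- against WT, or -0.40 without Lmx1b+/- 2. It was 0.09 ± 0.46 SE for Lmx1b-/- against WT and -0.35 ± 0.45 SE for Lmx1b-/- against Lmx1b+/-, or 0.46 without Lmx1b+/- 2. A difference of Pvalb between these groups was not detectable at this depth and spread.

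**Figure D4:**
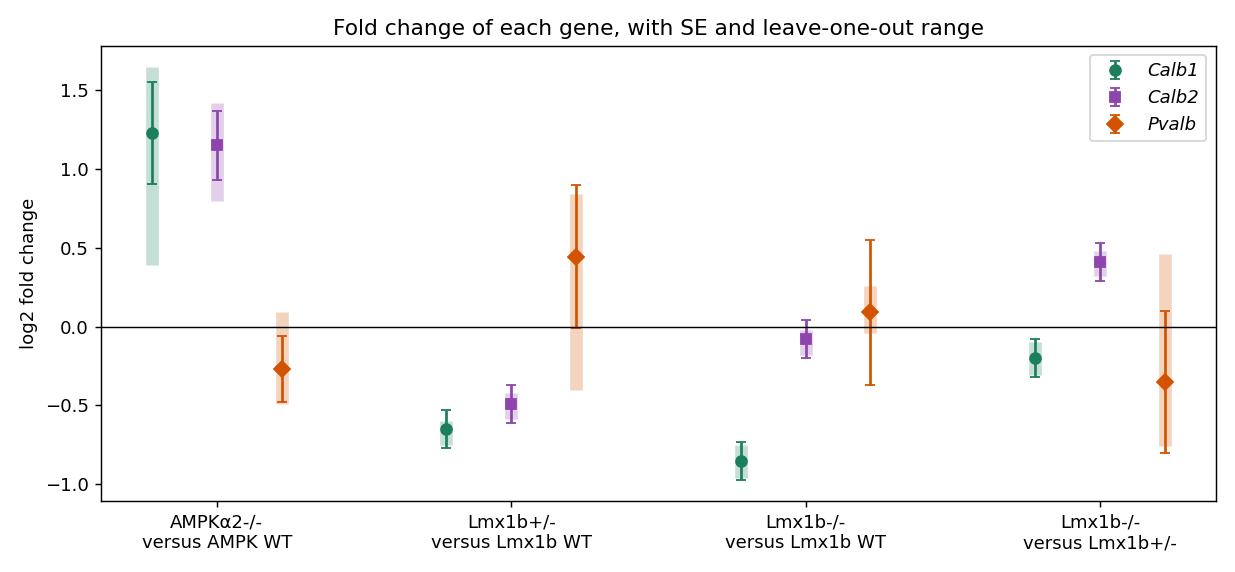
Log2 fold change (vertical) of Calb1, Calb2 and Pvalb in each comparison, with bars for the SE of the fit and wide pale bars for the range of values when 1 library is left out. Calb1 in Lmx1b-/- against WT stays at or below -0.75, whereas Pvalb crosses 0 in all 4 comparisons.

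Purkinje cell genes of the cerebellum, which borders on the brainstem, moved with Calb1 in the difference from WT, while the 2 mutants overlapped in both. The 5 genes of that list summed to 105 to 127 CPM in WT, 48.5 to 68.4 CPM in Lmx1b+/- and 59.2 to 74.6 CPM in Lmx1b-/-, so that WT lay above both mutants as Calb1 did. Their median was 74.1 CPM in Lmx1b-/- and 50.5 CPM in Lmx1b+/-, where Calb1 had means of 21.1 and 24.3 CPM. Per gene length the Calb1 means were 4.53 RPKM in Lmx1b-/- and 4.52 RPKM in Lmx1b+/-, so no difference between the mutants is read. In the AMPK experiment the sum was 57.3 to 70.6 CPM in AMPKα2-/- and 71.7 to 107 CPM in WT, and Calb1 was on average higher in AMPKα2-/-. Rora, a nuclear receptor that Purkinje cells need to mature, stood at 59.6, 66.7 and 55.1 CPM in WT and 28.7, 34.8 and 26.0 CPM in Lmx1b+/-, a fall by 1.02 (log2, SE 0.12, adjusted p = 4.86e-05). Car8, an inhibitor of the calcium release channel Itpr1, fell by 1.29 (SE 0.20, adjusted p = 0.000315), and Pcp2 by 2.08 (SE 0.53, adjusted p = 0.00797). The other 2 were not called, with log2 fold changes of 0.90 ± 0.42 SE for Ppp1r17 (adjusted p = 0.11) and -0.59 ± 0.39 SE for Skor2 (adjusted p = 0.255). In Lmx1b-/- none of the 5 was called by edgeR (3 had an unadjusted p under 0.05), with log2 fold changes of -0.95 for Car8, -0.69 for Rora and -2.30 for Pcp2. DESeq2 called these 3 lower. Granule cell genes summed to 402 to 507 CPM in WT, 306 to 416 CPM in Lmx1b+/- and 363 to 401 CPM in Lmx1b-/-, with Gabra6, a gene of mature granule cells, at 0 in all WT and Lmx1b+/- libraries. The part of cerebellar tissue in the Calb1 values was not tested. For Pvalb, the summed level of 6 choroid plexus genes was highest in Lmx1b+/- 2, at 1634 CPM, and lowest in Lmx1b+/- 1, at 71.0 CPM, the same libraries that held the highest and the lowest Pvalb. The libraries between these did not keep the same order. Lmx1b-/- 1 had 1286 CPM of choroid plexus genes with Pvalb at 1.45 CPM, and WT 1 had 358 CPM with Pvalb at 1.55 CPM. The part of choroid plexus in the Pvalb values was not tested either. Skeletal muscle genes summed to 21.1 to 32.0 CPM in the 9 libraries. The 12 hindbrain genes summed to 145 to 306 CPM in WT, 257 to 641 CPM in Lmx1b+/- and 220 to 292 CPM in Lmx1b-/-. In Lmx1b+/- against WT, 5 of them were called higher and 0 lower, beside 19.4% higher and 17.3% lower of all genes. The 8 midbrain genes summed to 38.2 to 98.6, 28.1 to 73.0 and 33.6 to 47.9 CPM in the same order. The part of the level of dissection in the Calb1 and Calb2 values was not tested.

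In Lmx1b+/- against WT, 19.4% of all genes were called higher and 17.3% lower. Of the 86 list genes tested 8 were called higher and 46 lower, with a median log2 fold change of -0.40 against -0.03 over all genes. When libraries were scaled by their total alone, the median of all genes moved to -0.27 and the split of list calls became 2 higher and 54 lower. Of 18 fast-spiking and perineuronal net genes 14 were called lower. The potassium channel gene Kcna2 fell by 1.01 (SE 0.11, adjusted p = 2.22e-05), from 71.0 to 35.3 CPM. The extracellular matrix genes Tnr and Ncan fell by 0.96 (SE 0.11, adjusted p = 3.19e-05) and 0.95 (SE 0.12, adjusted p = 5.77e-05). Of 23 genes of calcium pumps, exchangers and stores 13 were called lower and 0 higher. They include Atp2b2, a pump that drives calcium out of neurons, which fell by 1.04 (SE 0.13, adjusted p = 7.22e-05), from 173 to 84.0 CPM, and Ryr2, a calcium release channel, which fell by 0.84 (SE 0.11, adjusted p = 9.22e-05).

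The other EF-hand genes went both ways. Of 7 S100 genes 6 were called higher and 0 lower in Lmx1b+/-, a count of 1 when scaled by the library total alone or without Lmx1b+/- 3, of 2 without WT 3 and of 3 without WT 1. S100a10 rose by 1.37 (SE 0.18, adjusted p = 8.26e-05), from 18.9 to 48.8 CPM, whereas S100a13, S100a16 and S100a6 rose by 0.92, 0.38 and 0.62 and lost their calls under that scaling. Calm2 rose by 1.02 (SE 0.14, adjusted p = 0.000129), from 489 to 990 CPM, and Pcp4, which binds calmodulin, by 0.62 (SE 0.12, adjusted p = 0.00117), while 6 of the 13 calmodulin genes, 5 of them encoding its kinases, were called lower. Of 10 neuronal calcium sensors 3 were called lower (Ncs1, Hpcal1 and Hpcal4), and of 7 CaBP and NECAB genes 4 (Cabp1, Cabp7, Caln1 and Necab3), all named after their values were seen. Of 7 transmitter genes, 6 were called lower.

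In Lmx1b-/- against WT, 0% of all genes were called higher and 0.0184% lower, which is 4 genes of 21729. They include Slc6a4, the serotonin transporter, with a log2 fold change of -5.18, Tph2 with -4.75 and Lmx1b itself with -3.82. The fourth is Calb1, which was chosen with its value known, so that no call is read from it. Slc6a4 had 24.2, 21.9 and 24.2 CPM in WT against 0.484, 0.771 and 0.662 CPM in Lmx1b-/-. Of the 86 list genes none was called by edgeR or DESeq2 (11 and 13 had an unadjusted p under 0.05), and their median log2 fold change was 0.05. The count over all genes was 10 without WT 2, and 11, of which 8 were higher, without Lmx1b-/- 2.

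In Lmx1b-/- against Lmx1b+/-, 11.5% of all genes were called higher and 14% lower. Of the 86 list genes 49 were called higher and 4 lower, among them 15 of 18 fast-spiking and perineuronal net genes and 14 of 23 calcium pump, exchanger and store genes, all higher. Tnr was higher by 1.08 (SE 0.11, adjusted p = 4.13e-05), Bcan, another matrix gene, by 0.94 (SE 0.11, adjusted p = 0.000105), and Atp2b2 by 0.97 (SE 0.13, adjusted p = 0.000235). The 4 called lower were Pcp4 by 0.84, S100a10 by 1.04, Calm2 by 0.67 and S100a11 by 0.56. As with Calb2, Tnr in Lmx1b-/- lay near WT, with means of 87.7 CPM in Lmx1b-/-, 41.4 CPM in Lmx1b+/- and 80.3 CPM in WT. Not all genes named here did so. Bcan had 179, 168 and 176 CPM in Lmx1b-/- against 148, 139 and 145 CPM in WT. Calm2 had 571, 674 and 620 CPM against 477, 482 and 508 CPM, so that both lay wholly above WT. Calb1 did not have the pattern of Calb2 and Tnr, with Lmx1b-/- at 21.1 CPM and Lmx1b+/- at 24.3 CPM.

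**Figure D5:**
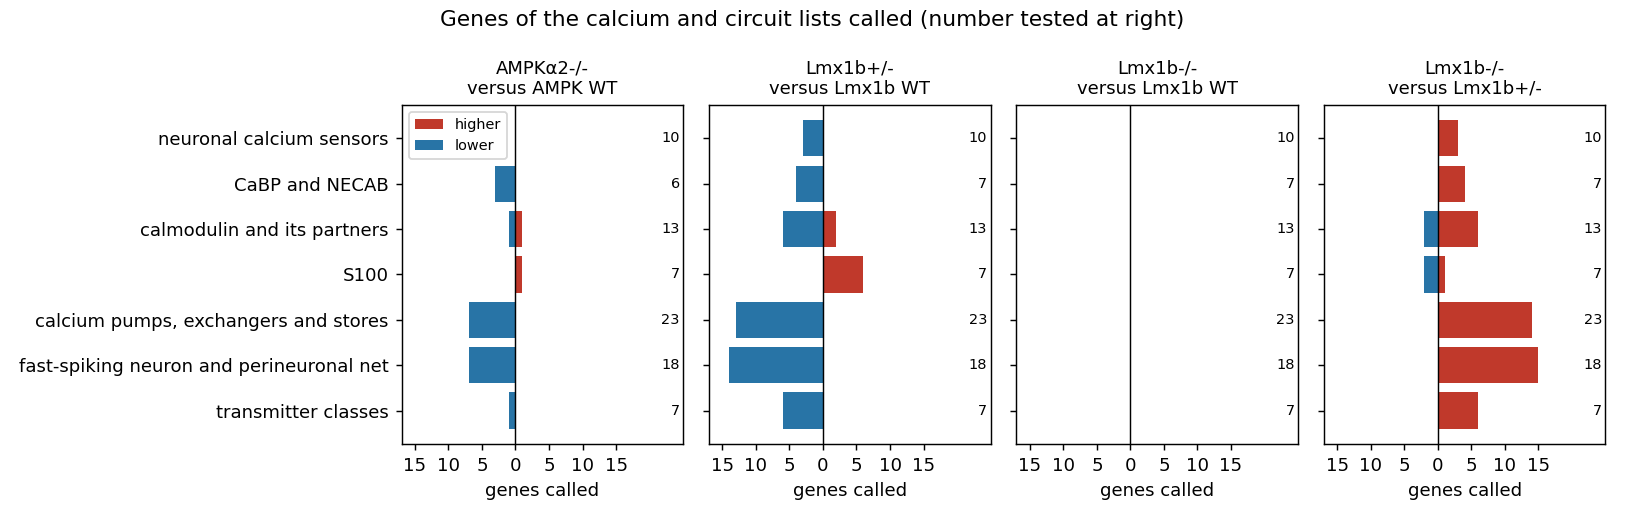
Number of genes called higher (right of 0) and lower (left of 0) at an adjusted p under 0.05 in 7 of the 8 lists, by comparison, with the number tested at the right of each row. The lists are mostly lower in Lmx1b+/- against WT, hold no call in Lmx1b-/- against WT and are mostly higher in Lmx1b-/- against Lmx1b+/-.

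The eighth list, called close relatives here, holds 3 genes that were near or below detection. Scgn, the gene of secretagogin, the other hexa-EF-hand protein beside calbindin and calretinin, had 0 to 9 counts in the AMPK libraries and 6 to 24 counts, or 0.208 to 0.774 CPM, in the Lmx1b libraries. Ocm, the gene of oncomodulin, a parvalbumin of the inner ear, had 0 to 4 counts in any library. S100g, an S100 gene whose product is the small intestinal calbindin-D9k, had 0 to 12 counts. Only Scgn passed the filter on low counts, in the Lmx1b experiment, and it was not called in any of the 3 comparisons there.

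The genes most like each member across the 9 Lmx1b libraries were ranked by Pearson's r of log2 CPM. These libraries share depth, dissection and genotype groups, and the values describe them only. Calb1 was most like Dnajc30, Gm49747 and Celf1 (r of 0.943, 0.919 and 0.908), and Calb2 most like Chn2, Smtnl2 and Asb13 (0.974, 0.964 and 0.963). Pvalb was most like Foxj1, the master factor of motile cilia that ependymal and choroid cells carry (0.970), then ENSMUSG00000118462 and Llgl2 (0.956 and 0.948). Foxj1 stood at 33.4 CPM in Lmx1b+/- 2 and at 9.51 CPM in Lmx1b+/- 1, its highest and lowest libraries and those of Pvalb. The members were little like each other, with r of 0.355 for Calb1 and Calb2, -0.238 for Calb1 and Pvalb and 0.185 for Calb2 and Pvalb.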

How the data were processed

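PolyA RNA of brainstem tissue was sequenced as 15 libraries. The authors aligned reads with hisat2 in systemPipeR; the submitters' processing notes name GRCm39, and the counter, annotation and use of molecular indexes are not given in the sources used here. The deposited counts are whole numbers per gene without normalization. The deposited RPKM are counts scaled by gene length and library total, and were used per gene length only. Each column was assigned by genotype and number, and 0 columns belonged to other samples. AMPK WT 3 was read from a column whose name has an unexplained suffix, and Lmx1b WT 3 from a column numbered as in its library name. Of 57180 identifiers, 90.7% had a symbol.

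The counts entered edgeR 4.0.16 under R 4.3.3 (filterByExpr, TMM, quasi-likelihood test, Benjamini-Hochberg adjustment over all tested genes), in a fit of the 6 AMPK and a fit of the 9 Lmx1b libraries, and the code was tested on simulated data. A call means an adjusted p below 0.05. CPM are in edgeR's unit, relative to the TMM-scaled total. SE is the log2 fold change divided by the root of F. Correlations used log2 CPM with a prior count of 2. The members, lists and tests were chosen with earlier results of these data known. Named were the members in every library, up to 6 list genes per direction and comparison with the smallest p and separate groups, the close relatives, the 3 genes most like each member, up to 3 top genes of each marker list and the targeted genes. Exceptions are stated beside their values; Slc6a4 and Tph2 are 2 of the 4 genes called in Lmx1b-/- against WT, and Scn10a, Avil, Tnnc2, Myoz1, Gabra6, Pcp2, Ppp1r17 and Skor2 were named to give marker genes at 0 or the rest of a list. Alternatives were DESeq2 1.42.0, limma 3.58.1 on log2(RPKM + 1) or log2(RPKM + 0.1), other scalings and filters, the replicate block, only the 6 libraries compared, and fewer libraries. A gene that the rule would name is not reported here.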

Additional observations from a re-analysis of the deposited data

How the results depend on the processing

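The single-gene tests under the alternatives covered 41 pairs of a gene and a comparison, mostly picked by small p and separate groups. Of these tests, 530 kept their direction and side of the threshold, 70 lost the call, 8 gained one (Car8, Rora and Pcp2 in Lmx1b-/- against WT) and 0 changed sign. Cabp1, Cabp7, Caln1, Camk2a, Ryr1, Ncs1, Hpcal1, Hpcal4, Necab3, Ppp1r17 and Skor2 were not among them. Pvalb changed sign under 1, 2, 1 and 3 of 15 alternatives in AMPKα2-/- against WT, Lmx1b+/- against WT, Lmx1b-/- against WT and Lmx1b-/- against Lmx1b+/-. In AMPKα2-/- against WT, 1555 genes were called, against 678 by DESeq2, 823 with at least 10 counts in every library, 6 without the 2 libraries of low depth, 541 (without WT 3) to 2959 (without WT 1) when 1 library was left out, and 0 by limma with either pseudocount (2840 and 2543 with an unadjusted p under 0.05). The 21 list genes called became 0 by limma with either pseudocount, 1 without the libraries of low depth and 9 to 34 when 1 library was left out. Calb1 there ranged from 0.39 to 1.65 when 1 library was left out. With scaling by library size alone, limma with a pseudocount of 1 and limma with 0.1, Calb1 in Lmx1b+/- against WT became -0.90, -0.77 and -0.88, Calb2 there -0.73, -0.68 and -0.72, Calb1 in Lmx1b-/- against Lmx1b+/- 0.01, 0.00 and 0.00, and Calb2 there 0.61, 0.58 and 0.61. The same scaling moved the median of all genes to -0.18, -0.27 and 0.22 in AMPKα2-/- against WT, Lmx1b+/- against WT and Lmx1b-/- against Lmx1b+/-. It moved the split of all calls from 655 higher and 900 lower to 280 and 1651, from 4225 and 3752 to 2058 and 5815, and from 2500 and 3044 to 3737 and 1297. The 4 genes called in Lmx1b-/- against WT became 19 with library size alone (6 higher and 13 lower), 36 by DESeq2 (15 higher and 21 lower), 329 with all genes with any count (149 higher and 180 lower), 13 with only the 6 libraries compared and 3 to 11 when 1 library was left out. The 0 list genes called there became 2 with all genes with any count. The 5544 genes called in Lmx1b-/- against Lmx1b+/- became 3500 to 6055 when 1 library was left out. The cause of these shifts was not tested.

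No pairing of the libraries by replicate number was seen. The deviations of libraries with the same number correlated at -0.121 to 0.0476 in the AMPK and -0.177 to 0.148 in the Lmx1b experiment. For libraries with different numbers it was -0.0962 to 0.123 and -0.116 to 0.237. With so few libraries, some of them shallow, these values cannot exclude a pairing. With the replicate block, 1350, 7243, 5 and 4720 genes were called in the 4 comparisons and 21, 50, 0 and 49 list genes, each within 1.5 times the count without it, and Calb2 in AMPKα2-/- against WT was 1.29.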
